A study of Drosophila melanogaster with 3 samples.

Results

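The genes described are the 10 tubulin genes alphaTub84B, alphaTub84D, alphaTub85E, alphaTub67C, betaTub56D, betaTub60D, betaTub85D, betaTub97EF, gammaTub23C and gammaTub37C, chosen by symbol from 13968 protein-coding genes. Binding of Trem, a zinc finger protein of Drosophila melanogaster, was mapped by chromatin immunoprecipitation and sequencing (ChIP-seq) in 3 biological replicates of a single group. All were whole embryos aged 0 to 14 hours with the sexes pooled, from a transgenic line in which Trem carries GFP at its C terminus, precipitated with an antibody against GFP, although another label gives Trem as the antibody's target. The labels name no other genotype, stage or treatment, so conditions could not be compared, and a control library was not analysed here. The measurements were lists of peaks with a signal value per peak, which is the authors' own and can be compared only within its list. Each replicate list and the list from the pooled reads held 30000 peaks, and 7477 pooled peaks made up the list that passed the irreproducible discovery rate (IDR) filter. Below, bound genes are those with a summit of the IDR list at most 500 bp from an annotated transcription start site (TSS). Read depth is unknown.

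Trem, the product of trade embargo, is known for its part in starting meiotic recombination in the female germline. Microtubules are polymers of alpha-tubulin and beta-tubulin dimers, and gamma-tubulin seeds them at centrosomes. Flies encode each subunit in several genes with different expression. Textbook expression put alphaTub84B, alphaTub84D, betaTub56D and gammaTub23C among the ubiquitous genes. The maternal genes are alphaTub67C, an alpha-tubulin of the oocyte and early embryo, and gammaTub37C, the gamma-tubulin of the oocyte and the first divisions. The testis gene betaTub85D encodes the beta-tubulin of the sperm axoneme. The late embryonic genes are alphaTub85E, betaTub60D, known from mesoderm and muscle, and betaTub97EF. The peak lists carry no expression values, so these classes were not checked against RNA.

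The sequences at 5 IDR summits and upstream of 2 unbound genes are shown, because they place the peaks and motifs described below. They come from the RefSeq genome of the dm6 assembly, in the direction of the named gene, and were trimmed where an annotated exon began. Each of the first 5 spans up to 60 bp on each side of a summit, and the last 2 end at the base before the TSS. Capitals mark the motifs searched: TATAAA, the DNA replication-related element (DRE) TATCGATA, the core GGTCACAC of the motif of the promoter factor M1BP, the GAGA factor motif GAGAGAG, the Zelda motif CAGGTAG, the E-box CAGCTG and 5 words of 8 bases, called 8-mers. Those 8-mers had the largest excess in windows of 100 bp on each side of IDR summits over windows centred 500 bp away.
gammaTub23C summit, chr2L:2972685-2972805, plus strand: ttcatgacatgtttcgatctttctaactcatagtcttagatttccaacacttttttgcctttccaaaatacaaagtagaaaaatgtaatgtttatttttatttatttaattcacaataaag
alphaTub84B summit, chr3R:7086495-7086598, plus strand: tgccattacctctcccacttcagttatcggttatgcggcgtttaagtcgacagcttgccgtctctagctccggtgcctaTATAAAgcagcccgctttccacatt
alphaTub84D distal summit, chr3R:7530405-7530525, plus strand: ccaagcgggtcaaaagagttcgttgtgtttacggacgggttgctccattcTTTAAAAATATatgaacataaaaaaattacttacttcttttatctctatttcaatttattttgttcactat
gammaTub37C summit, chr2L:19185945-19186042, minus strand: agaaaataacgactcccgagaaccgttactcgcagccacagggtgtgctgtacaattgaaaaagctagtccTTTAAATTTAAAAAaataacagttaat
betaTub97EF intron summit, chr3R:27987450-27987570, minus strand: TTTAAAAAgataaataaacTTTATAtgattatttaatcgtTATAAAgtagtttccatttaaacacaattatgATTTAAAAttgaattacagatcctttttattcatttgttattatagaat
alphaTub67C promoter, chr3L:9681148-9681267, plus strand: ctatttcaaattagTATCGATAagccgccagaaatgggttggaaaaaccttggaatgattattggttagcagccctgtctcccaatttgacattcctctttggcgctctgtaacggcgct
alphaTub85E promoter, chr3R:9733251-9733370, minus strand: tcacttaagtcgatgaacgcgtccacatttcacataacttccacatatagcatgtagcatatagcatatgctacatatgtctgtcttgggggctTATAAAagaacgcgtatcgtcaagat
The summit at gammaTub23C held no capitals, whereas the promoter of alphaTub67C, which had no peak, carried a DRE.

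Peaks separated the ubiquitous tubulin genes from most of the others. All 4 ubiquitous genes were bound, and 1 of the 6 other genes, gammaTub37C, was bound. Of all 13968 protein-coding genes 5818 were bound, or 41.7%, so the 5 bound members of 10 lay near the share of all genes, and the classes lay on either side of it. Members are not replicates of a condition, and no test was made of the difference between the classes.

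**Figure D1:**
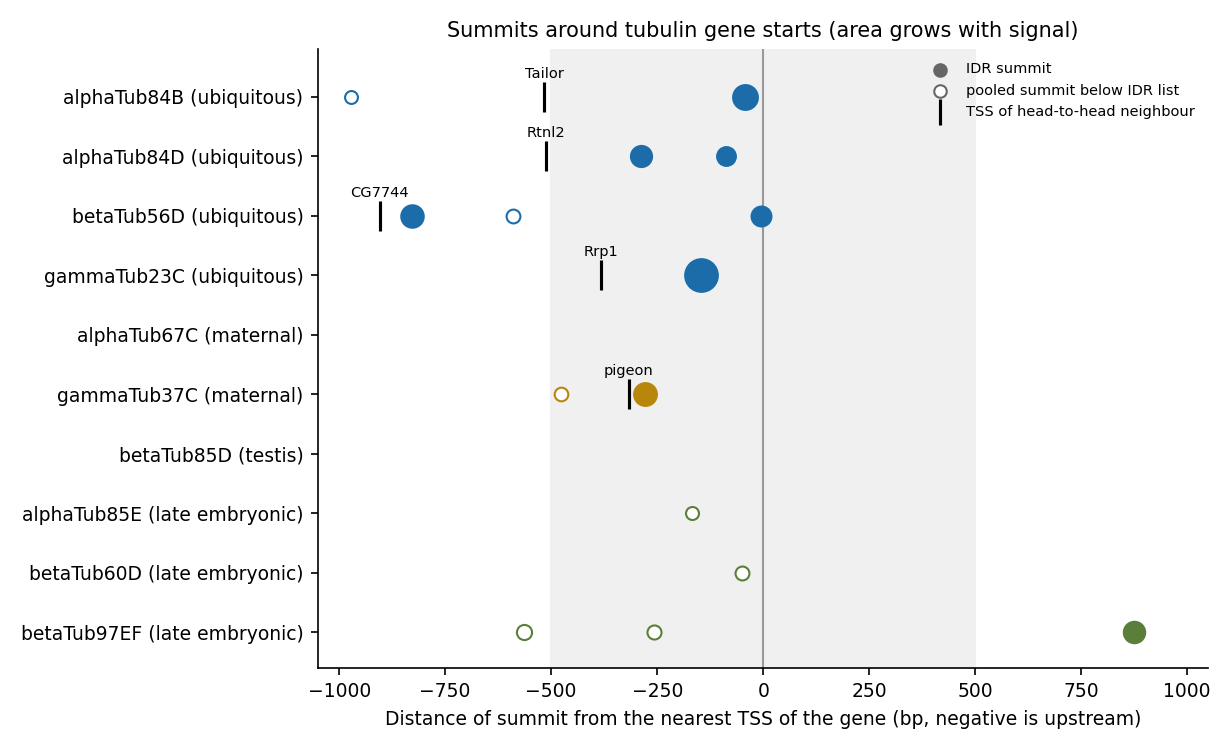
Positions of summits within 1000 bp of a TSS of each tubulin gene, with the horizontal axis in bp from the nearest TSS of the gene and the grey band marking 500 bp on each side. Filled circles are IDR summits, open circles are pooled summits outside the IDR list, circle area grows with the signal value and black bars mark the TSS of an oppositely oriented neighbour upstream. IDR summits lie inside the band at the 4 ubiquitous genes and at gammaTub37C, where the summit is beside the TSS of pigeon.

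The gamma-tubulin gene of dividing somatic cells, gammaTub23C (FBgn0260639, 2L 2972891 to 2974858, plus strand), had the strongest tubulin peak. Its IDR peak, 2L 2972660 to 2972916, had its summit 146 bp upstream of the TSS with a signal of 630.4 and rank 760 of the pooled list. It ranked 694, 683 and 2020 in replicates 1, 2 and 3, and all 3 summits lay between 123 and 187 bp upstream. The mean rank was 3.77% ± 2.56 of the list length (SD, n = 3). Replicate 3 gave the lowest place of the 3. The summit also lay 237 bp upstream of Rrp1, an endonuclease gene of DNA repair that runs in the opposite direction from a TSS 383 bp away.

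The main alpha-tubulin gene, alphaTub84B (FBgn0003884, 3R 7086599 to 7088839, plus strand), had an IDR summit 44 bp upstream of its TSS with a signal of 332.8 and rank 2700. It ranked 2725, 3894 and 1419 in replicates 1, 2 and 3, a mean of 8.93% ± 4.13 (SD, n = 3). The summit of replicate 1 was 138 bp upstream, 94 bp from the IDR summit, whereas those of replicates 2 and 3 were 44 and 51 bp upstream. Replicate 1 therefore had no partner for this peak when summits had to lie within 50 bp. A TATAAA motif began 25 bp upstream of the TSS, 22 bp from the summit, and is the run of capitals in the sequence above. The nearest other start was that of Tailor, an RNA uridylyltransferase gene, 472 bp from the summit.

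The second ubiquitous alpha-tubulin gene, alphaTub84D (FBgn0003885, 3R 7530753 to 7532732, plus strand), had a pair of IDR summits. The distal summit lay 288 bp upstream, with a signal of 221.8 and rank 4775, and was nearer to the TSS of the opposite gene Rtnl2, a reticulon-like gene, at 224 bp. The proximal summit lay 88 bp upstream, with a signal of 160.8 and rank 6772, close to the lowest IDR signal of 144.4. The distal peak ranked 6614 and 3302 in replicates 1 and 2 and had no partner within 100 bp in replicate 3. The proximal peak ranked 18391, 7289 and 8826 in replicates 1, 2 and 3. Its partner in replicate 1 was a minor summit 3 bp upstream of the TSS. The stronger replicate 1 summit, at rank 6614, lay 208 bp upstream, between the pair of IDR summits. That summit was within 100 bp of the distal IDR summit only, and within 200 bp of both. The low rank of the proximal peak in replicate 1 thus depends on the matching distance. Taking the strongest summit within 500 bp in each replicate, the gene had a mean rank of 20.8% ± 9.27 (SD, n = 3). The 8-mers TTTAAAAA and AAAAATAT overlapped at the distal summit, and the M1BP core began 1 bp before the TSS, 91 bp from the proximal summit.

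The main beta-tubulin gene, betaTub56D (FBgn0284243, 2R 19447319 to 19451600, minus strand), had an IDR summit 6 bp upstream of its outer TSS with a signal of 188.5 and rank 5751. This peak ranked 8852, 3188 and 5366 in replicates 1, 2 and 3, a mean of 19.3% ± 9.52 (SD, n = 3). The replicate summits ran from 56 bp upstream to 11 bp downstream of the TSS. A TATAAA motif began 26 bp upstream. A stronger IDR peak, with a signal of 260.2 and rank 3856, lay 829 bp upstream of betaTub56D and 75 bp upstream of the opposite gene CG7744, and was outside the 500 bp window. The inner TSS at 19449599 had no IDR summit in its window.

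Among the other classes, gammaTub37C (FBgn0010097, 2L 19183863 to 19185726, minus strand) was bound through a summit 279 bp upstream, with a signal of 270.4 and rank 3663. It ranked 5222, 3744 and 2545 in replicates 1, 2 and 3, a mean of 12.8% ± 4.47 (SD, n = 3). The summit lay 38 bp upstream of pigeon, a gene in the opposite direction whose TSS is 317 bp from that of gammaTub37C. The peak was therefore nearer to pigeon than to the tubulin gene. Each ubiquitous gene had an IDR summit nearer to its own TSS than to any other. At alphaTub84D this was the weaker, proximal summit, and the stronger summit lay nearer to Rtnl2. With a window of 250 bp the 4 ubiquitous genes were still bound and none of the 6 others was, against 36.9% of all protein-coding genes. A DRE began 30 bp upstream of the gammaTub37C TSS, 252 bp from the summit, and the AT-rich 8-mers in capitals lay 37 to 43 bp from it.

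The other maternal gene, alphaTub67C (FBgn0087040, 3L 9681268 to 9683370, plus strand), had no summit within 500 bp in the IDR list, the pooled list or any replicate list. Its nearest IDR summit was 11886 bp downstream, with a signal of 435.1, and lay 1303 bp downstream of the TSS of Prps. The testis gene betaTub85D (FBgn0003889, 3R 9408383 to 9410282, minus strand) likewise had no summit within 500 bp in any of the 5 lists. A strong IDR peak, with a signal of 1472.1 and rank 239, lay 2157 bp upstream of betaTub85D and 109 bp upstream of the mannosidase gene alpha-Man-IIa. The replicate and pooled lists each end at 30000 peaks and the IDR list at 7477, so weaker signal there would not be seen.

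The late embryonic genes had weak pooled peaks at their starts and no IDR summit there. At alphaTub85E (FBgn0003886, 3R 9731221 to 9733250, minus strand) the pooled summit was 167 bp upstream with a signal of 39.6 and rank 26639. Its best ranks were 18808 and 18427 in replicates 1 and 3, with no peak in replicate 2. At betaTub60D (FBgn0288686, 2R 24305881 to 24313099, plus strand) the pooled summit was 50 bp upstream with a signal of 55.6 and rank 18158. The best ranks there were 11570 and 14268 in replicates 2 and 3, with no peak in replicate 1. At betaTub97EF (FBgn0003890, 3R 27967008 to 27988384, minus strand) the pooled summit was 258 bp upstream with a signal of 58.6 and rank 17167. Its only partner within 100 bp was in replicate 2, at rank 20702. The best-ranked summits in the window, at ranks 11779 and 27896 in replicates 2 and 3, lay 73 and 103 bp downstream of the TSS, and replicate 1 had none in the window. A stronger pooled peak, with a signal of 79.4 and rank 12659, lay 564 bp upstream of betaTub97EF, outside the window. It ranked 8733 and 14515 in replicates 1 and 3 and had no partner in replicate 2. Pooled peaks of any strength at a TSS were found for 8210 of all protein-coding genes, or 58.8%, and for 8 of the 10 tubulin genes.

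The long gene betaTub97EF, which spans 21377 bp, had the only IDR summit inside a tubulin gene body. This intronic summit lay 874 bp downstream of the TSS at 3R 27987510, with a signal of 229.2 and rank 4572. It ranked 4138, 5599 and 4957 in replicates 1, 2 and 3, a mean of 16.3% ± 2.44 (SD, n = 3), the smallest SD among the 7 IDR peaks here with a partner in all 3 replicates. The summits of replicates 2 and 3 were each 96 bp from the IDR summit. The sequence around the summit is AT-rich, with 16.5% G and C over the 121 bp shown above. The share was 24.8% at the gammaTub23C summit and 30.6% and 29.8% at the distal and proximal alphaTub84D summits. It was 36.7% at gammaTub37C and 51.0% at alphaTub84B, over stretches trimmed to 98 and 104 bp.

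Within each replicate list, counting only summits within 500 bp of a TSS, every bound tubulin gene ranked above every unbound tubulin gene. The best ranks of the 5 bound genes ran from 683 to 8852 over the 3 replicates. Those of the 3 unbound genes with a peak in any replicate, alphaTub85E, betaTub60D and betaTub97EF, ran from 11570 to 27896, each with no peak in 1 replicate. Outside this window betaTub97EF had higher places in replicate 1, rank 8733 at 545 bp upstream and rank 4138 at 875 bp downstream. The replicate lists entered the IDR filter, so these ranks are not separate evidence for the calls. Among the bound genes the order of the mean ranks was gammaTub23C, alphaTub84B, gammaTub37C, betaTub56D and alphaTub84D. The replicate ranges of neighbours in this order overlapped. The range of gammaTub23C did not overlap those of gammaTub37C, betaTub56D and alphaTub84D. The ranks of all genes come from the same 3 lists, so they are paired by list. No test between genes was run.

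**Figure D2:**
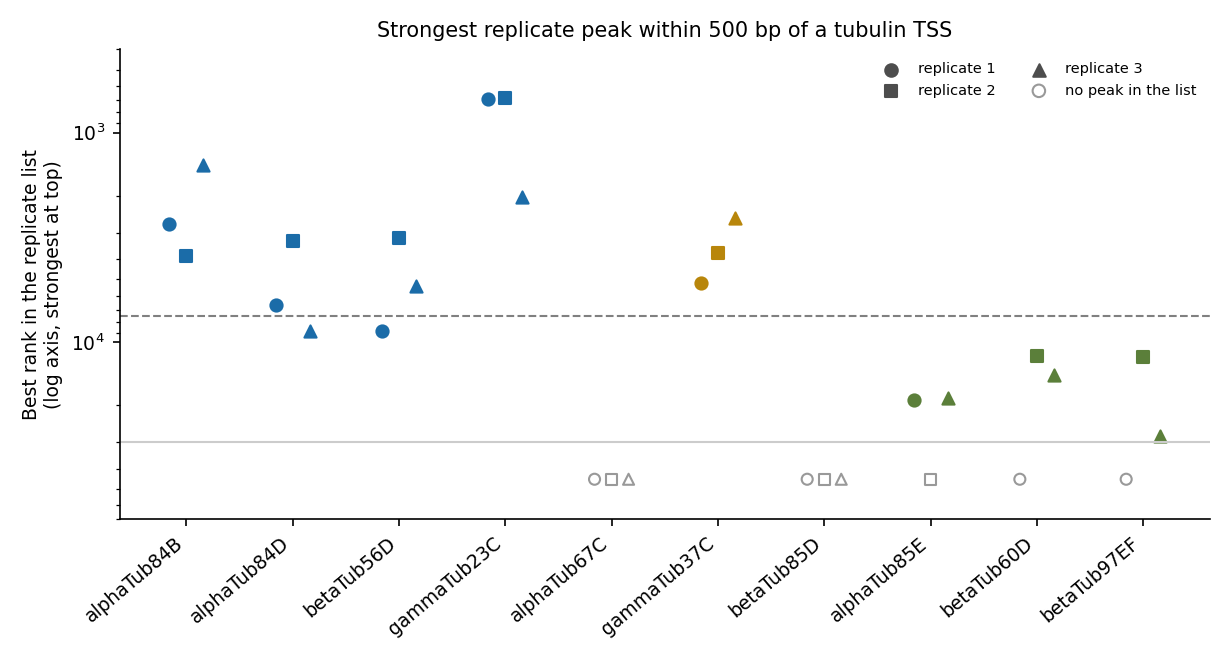
Best rank of any summit within 500 bp of a TSS in each replicate list, on a log axis with the strongest peaks at the top, by gene and coloured by expression class. The dashed line marks rank 7477, the grey line marks the end of the list at 30000, and open symbols below it mark lists with no peak. Ubiquitous genes and gammaTub37C lie between ranks 683 and 8852, and the unbound genes lie at 11570 or lower places or have no peak.

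Among the 7477 strongest peaks of each replicate, the number of bound tubulin genes was 4, 5 and 4 in replicates 1, 2 and 3, a mean of 4.33 ± 0.577 (SD, n = 3). In the same lists 40.6%, 41.4% and 40.4% of all protein-coding genes were bound. The ubiquitous genes accounted for 3, 4 and 3 of these, and gammaTub37C for the other in each replicate. The gene missing from replicate 1 was betaTub56D, at rank 8852, and the gene missing from replicate 3 was alphaTub84D, at rank 8826. No late embryonic or testis gene was bound in any replicate on this measure.

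The bound tubulin genes were of ordinary strength. The strongest promoter peak of a bound gene had a median signal of 329.3 over 5818 genes, with quartiles of 228.0 and 489.7, and the 5 bound tubulin genes had a median of 270.4. The peak of gammaTub23C was stronger than that of 85.1% of bound genes and that of alphaTub84B stronger than 50.8%. The peak of gammaTub37C was stronger than 36.4% and that of betaTub56D stronger than 12.0%, and alphaTub84D was in place 4480 of 5818. Of the 5 genes, gammaTub23C alone lay in the range above the upper quartile. The strongest promoter summit of bound genes lay a median of 99 bp upstream of the TSS and was upstream in 89.4% of them. Those of the 5 bound tubulin genes were also upstream, between 6 and 288 bp.

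**Figure D3:**
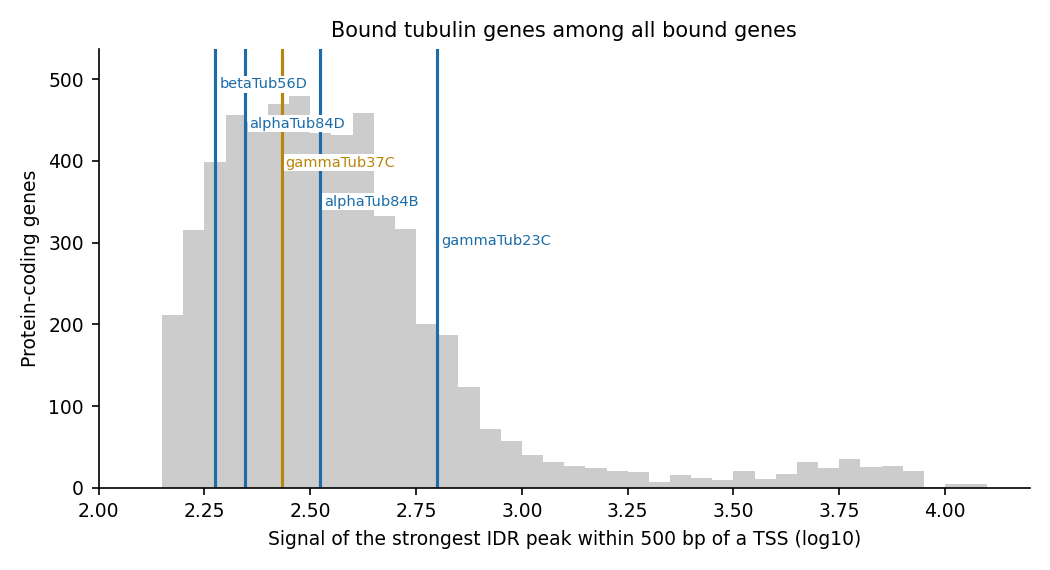
Histogram of the signal of the strongest IDR peak within 500 bp of a TSS, on a log10 axis, for 5818 bound protein-coding genes, with lines at the 5 bound tubulin genes. The line for gammaTub23C lies above the upper quartile of 489.7 and those of betaTub56D and alphaTub84D lie below the lower quartile of 228.0.

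Bound and unbound tubulin genes also differed in their neighbours. Each of the 5 bound genes had an oppositely oriented protein-coding neighbour whose TSS lay within 1000 bp upstream, and none of the 5 unbound genes had such a neighbour. These neighbours were Tailor at 516 bp, Rtnl2 at 512 bp, CG7744 at 904 bp, Rrp1 at 383 bp and pigeon at 317 bp. The summit that made the tubulin gene bound also lay within 500 bp of the neighbour's TSS in each case but CG7744, so these calls share a peak. Of all 5818 bound protein-coding genes, 62.5% had such a neighbour. Of 5052 protein-coding genes with such a neighbour 72.0% were bound, against 24.4% of the 8916 without one. All 4 ubiquitous genes had such a neighbour, so there was no ubiquitous gene without one to compare, and gammaTub37C was the only gene of the other classes with one. With the neighbour required within 500 bp, a setting added after the data had been seen, 2 of 2 tubulin genes with one and 3 of 8 without one were bound. Over all protein-coding genes, 80.5% of the 3815 with such a neighbour and 27.0% of the 10153 without one were bound.

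A DRE was found in the promoters of both maternal genes, alphaTub67C and gammaTub37C, counted from 250 bp upstream to 50 bp downstream of the outer TSS, and in none of the 8 other tubulin genes. The same window held a DRE in 9.36% of all promoters, in 18.3% of bound ones and in 2.96% of unbound ones. The alphaTub67C promoter, whose DRE began 106 bp upstream of the TSS, was thus an unbound promoter with a motif that was more frequent at bound ones. The motif TATAAA or its reverse complement was in 6 of the 10 tubulin promoters, against 45.8% of all promoters, and began 25 bp upstream of alphaTub84B and 26 bp upstream of betaTub56D and of alphaTub85E. The M1BP core was in alphaTub84D only, against 7.69% of all promoters. GAGAGAG and CAGGTAG were in no tubulin promoter, against 5.86% and 1.64%, and CAGCTG was in that of alphaTub85E, against 17.6%.

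Windows of 100 bp on each side of the 8 IDR summits within 1000 bp of a tubulin TSS were read on both strands in the same way. None held a DRE, against 9.09% of all IDR windows. The 8-mers ATTTAAAA, TTTAAAAA and AATTTAAA overlap one another and were in 2, 3 and 2 of the 8 windows, against 13.4%, 12.8% and 12.0% of all IDR windows. The 8-mer AAAAATAT was in 3, against 12.9%, and the remaining 8-mer was the DRE itself. In windows of 50 bp on each side AAAAATAT was in 1, against 6.63% of all IDR windows, and AATTTAAA in 1, against 5.94%. The windows with these AT-rich words were those of the alphaTub84D summits, gammaTub37C and the betaTub97EF intron, and those of gammaTub23C, alphaTub84B and betaTub56D had none of them.

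Genes whose products assemble, fold or act on tubulin were bound to different extents. In the gamma-tubulin ring complex, which holds gamma-tubulin in its nucleating ring, 5 of 7 genes were bound. The strongest was Grip71, which ties the complex to the spindle, with a signal of 724.2, a summit 136 bp upstream and ranks 598, 789 and 541 in replicates 1, 2 and 3. Grip91 and Grip84, ring subunits, had signals of 319.1 and 309.2. Grip75 and Mzt1 had no IDR summit, though both had a pooled peak. Of the tubulin folding genes 4 of 6 were bound, led by the prefoldin gene mgr at 931.4, the cofactor gene Tbcd at 522.8 and Tbca at 215.4. Tbcb and Tbce had no IDR summit, though Tbce had a pooled peak. These shares of 71.4% and 66.7% stand beside 41.7% of all protein-coding genes and rest on few genes.

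Tubulin-modifying enzymes were bound at 6 of 15 genes, close to the share of all genes. The alpha-tubulin acetyltransferase gene Atat led at 898.1, 135 bp upstream of its TSS, followed by the tubulin tyrosine ligase-like genes TTLL4A at 429.0 and TTLL12 at 418.2. The deacetylase gene HDAC6 and the carboxypeptidase gene Nna1 had no IDR summit. HDAC6 had a pooled peak, and a summit among the 7477 strongest peaks of each of the 3 replicates. Microtubule-associated and severing genes were bound at 15 of 21, or 71.4%. Map205 had the strongest peak at 604.3, followed by the katanin gene Kat60 at 527.4 and the spastin gene spas at 515.5. CLIP-190, a plus-end binding protein gene, and futsch, known from neurons, had no IDR summit. CLIP-190 had a pooled peak, and a summit among the 7477 strongest peaks in 2 of the 3 replicates. Over these 4 lists 30 of 49 genes were bound, or 61.2%, against 41.7% of all protein-coding genes. The bound ones had a median signal of 314.8. An oppositely oriented neighbour within 1000 bp upstream was present at 25 of the 49 genes, against 5052 of 13968 protein-coding genes. Of the 30 bound genes, 18 were among these 25.

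**Figure D4:**
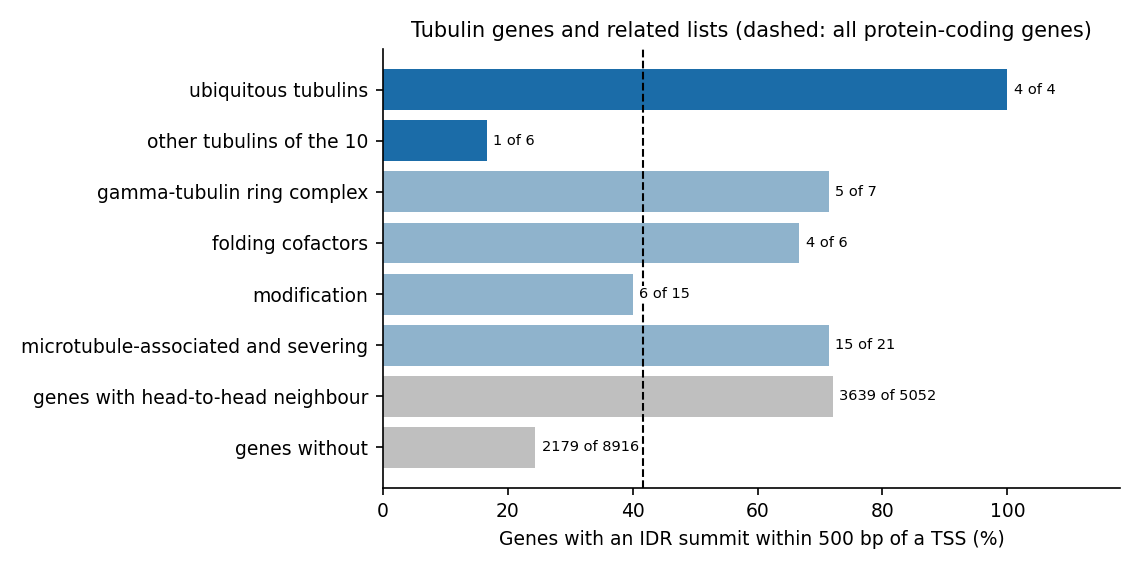
Share of bound genes, in percent, for the tubulin classes, the 4 related lists and all genes with or without a head-to-head neighbour, with counts beside the bars. The dashed line marks 41.7%, the share of all protein-coding genes. All 4 ubiquitous tubulin genes and 1 of the 6 others were bound, and tubulin-modifying enzymes lay beside the line.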

How the data were processed

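The authors deposited narrowPeak lists on dm6, 1 per replicate called with a control, 1 from the pooled alignments and the IDR list derived from these 4, as the submitters' own file lists state. Aligner and peak caller: not given in the sources used here. For each peak, signal and the -log10 q-value are those of the deposited lists. The q-value was tied at 4.21 for every IDR peak and was not used for ranking. Depth is unknown, so no interval that needs it is given.

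Peaks were ranked by signal within their list. Start, end and summit, printed counting from 1, were set against the TSSs of Ensembl release 115, whose coordinates are those of dm6. All 10 tubulin genes had the same span in RefSeq. Summits of 2 lists within 100 bp of each other counted as the same peak. A head-to-head neighbour is a protein-coding gene on the other strand with a TSS within 1000 bp upstream. Of the 51 list entries, all were matched by symbol, by case or by an older symbol. Python 3.11.15, numpy 2.4.6 and pandas 2.3.3 were used, and the distance calculation was checked on made coordinates. No significance test was run, since the samples form 1 group. The genes, classes and lists were chosen with earlier results of these data known. Named genes are the members, their neighbours, up to 3 bound genes of each list by signal, 2 of its unbound genes in alphabetical order, and the genes closest in replicate ranks to the 3 strongest members. Genes beside distant peaks, Prps and alpha-Man-IIa, were named after their values were seen. Alternatives were other windows, lists, annotations, summit distances and motif windows, and leaving out each replicate by keeping IDR peaks found in both others. RefSeq protein sequences of the tubulins were not analysed here.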

Additional observations from a re-analysis of the deposited data

How the results depend on the processing

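The count of 5 bound tubulin genes, 4 ubiquitous and 1 other, did not change with RefSeq TSSs, with the outermost TSS only, or on leaving out each replicate in turn, and the same 5 genes were bound each time. The share of all protein-coding genes that were bound was 39.8% with the outermost TSS and 38.5% to 39.5% on leaving out a replicate. With a window of 250 bp 0 of the 6 others were bound and the share of all genes was 36.9%. With 1000 bp these were 2, through the betaTub97EF intron, and 45.0%. Among the strongest 3738 IDR peaks 3 tubulin genes were bound, 2 of them ubiquitous, against 26.9% of all genes, and alphaTub84D and betaTub56D were those lost. In the whole pooled list 8 were bound, 4 of them in the other classes, against 58.8%. With neighbours within 500 bp, a setting added after the data had been seen, 2 genes with such a neighbour and 3 without one were bound. The counts were out of 2 and 8 genes, and the shares of all protein-coding genes were 80.5% and 27.0%. Without replicate 1 or 2 the strongest alphaTub84D summit was the proximal one, since the distal peak lacked a partner in replicate 3. Within 50 bp, replicates with a partner fell to 2 for alphaTub84B, to 1 for the distal and 2 for the proximal alphaTub84D peak, and to 1 for the betaTub97EF intron. In motif windows of 50 bp on each side of a summit AAAAATAT went from 3 to 1 of the 8 windows, and AATTTAAA from 2 to 1. Over all IDR windows their shares went from 12.9% to 6.63% and from 12.0% to 5.94%. The M1BP core went from 1 to 0, against 7.01% and 3.54% of all IDR windows. TATAAA went from 4 to 3, against 36.3% and 21.7%, and TTTAAAAA from 3 to 2, against 12.8% and 6.57%. The other motif counts were the same. The unknown depth limits what the absence of a peak shows. No paired comparison of conditions was possible because the samples form 1 group.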

Other observations

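Tubulin-like genes outside the 10 members, betaTub65B and CG7794, had no IDR or pooled summit within 500 bp of a TSS. Within 200 bp of each annotated TSS, all 36-base words of all 10 genes (366 per TSS) occurred once in the genome sequence searched. Only exact words were counted, so similar sequence with mismatches would not be seen. Summits farther from a TSS, such as that of gammaTub37C, lay outside these windows. The read length is not given in the sources used here.

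For the 3 members with the strongest peaks, the genes closest in rank over the 3 replicate lists were found among 5167 bound protein-coding genes with a partner in every list, as the sum of the absolute differences of log10 rank. Closest to gammaTub23C were P58IPK (0.142) and spi (0.153), closest to alphaTub84B were RpS12 (0.054) and Ogg1 (0.069), and closest to gammaTub37C were CG6724 (0.017) and Rubicon (0.081). CG6724 ranked 5279, 3706 and 2500 in replicates 1, 2 and 3, beside 5222, 3744 and 2545 for gammaTub37C.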
